A study of Mus musculus with 472 samples.

Results

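The respiratory chain and ATP synthase genes of the nucleus were followed across all the single cells of the series, which are retinal ganglion cells, the neurons whose axons form the optic nerve. Members were all genes whose symbol begins with Ndufa, Ndufb, Ndufc, Ndufs, Ndufv, Sdh, Uqcr, Cox4, Cox5, Cox6, Cox7, Cox8 or Atp5, without symbols that contain -ps. The rule took 0.184% of the 55450 genes in the table, and no measured value entered it. By role the members are 83 structural subunits of 5 complexes, 12 assembly factors, 4 processed pseudogenes and 3 others, which are 1 repeated symbol and the genes Cox7a2l and Atp5s. Of the structural subunits, 75 are the usual forms and 8 are minor isoforms known mainly from other tissues or states.

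All cells form 1 group without a treatment or a comparison group: C57BL/6J mice, 7 to 9 weeks old, with no genetic change named. Cells were patched one by one in flat-mounted retinas and recorded under blue and green light before their content was drawn off, and the RNA was amplified by Smart-seq2, a full-length method without molecular identifiers. The labels name no animal, so all cells together count as 1 sample and nothing was tested between cells. The median cell had 5184792.5 gene counts, the lowest 58907 and the highest 13004880. The group label was checked on 12 ganglion cell markers, and 95.6% of cells were positive for at least 6 of them. RNA of other retinal cells was present too: the summed level of 8 rod markers had a median of 484 and a highest value of 241812 CPM (counts per 1000000 gene counts). Cells were sorted by library name into 5 groups, called runs here, of which B held 98 cells, C 62, D 59, E 19 and A the others (49.6% of cells). For B and C the names do not identify the sequencing run, so either group may pool several. The median number of genes at 10 CPM or more was 3024 in run D and lay between 5253.5 and 6563 in the other runs.

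Complexes I to IV of the inner mitochondrial membrane pass electrons from NADH and succinate to oxygen, and complexes I, III and IV pump protons as they do so. Complex V, the ATP synthase, uses the proton gradient to make ATP. Nearly all subunits are encoded in the nucleus and imported, while a small set comes from mitochondrial DNA, so both genomes contribute to complexes I, III, IV and V. Ganglion cells are known for a high energy demand, and inherited faults of complex I are a known cause of optic nerve disease.

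The factors NRF-1 and NRF-2 (the ETS-family factor GABP) are known regulators of these genes, so the start regions were searched for their motifs. RefSeq start regions on GRCm38.p6, from 250 bases before to 50 after each start, matched 78 member symbols with 83 regions. The NRF-1 motif GCGCATG, sought on both strands, was found in 18.1% of these regions, against 3.91% of all 32851 regions and 7.94% of the 4511 regions of genes positive in 50% or more of cells. The ETS core CCGGAAG was found in 25.3%, against 8.86% of all regions and 18.8% of those of widely positive genes. Both motifs stood in the regions of 6 members, Ndufb6, Sdhb, Uqcr11, Cox6a1, Atp5k and Atp5l, which is 7.23% of the member regions, against 0.682% of all regions and 1.80% of those of widely positive genes. One such region per complex, picked after the matches were seen, is printed 5′ to 3′ with the motif letters of either strand in capitals, to show where the matches lie.
Ndufb6, chr4:40279372-40279671 (- strand): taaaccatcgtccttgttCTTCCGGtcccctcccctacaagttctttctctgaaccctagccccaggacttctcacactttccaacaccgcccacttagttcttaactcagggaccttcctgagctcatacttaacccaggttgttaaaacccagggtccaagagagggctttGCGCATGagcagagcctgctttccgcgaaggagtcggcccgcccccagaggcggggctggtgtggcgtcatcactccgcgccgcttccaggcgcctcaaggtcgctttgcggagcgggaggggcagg
Sdhb, chr4:140961021-140961320 (+ strand): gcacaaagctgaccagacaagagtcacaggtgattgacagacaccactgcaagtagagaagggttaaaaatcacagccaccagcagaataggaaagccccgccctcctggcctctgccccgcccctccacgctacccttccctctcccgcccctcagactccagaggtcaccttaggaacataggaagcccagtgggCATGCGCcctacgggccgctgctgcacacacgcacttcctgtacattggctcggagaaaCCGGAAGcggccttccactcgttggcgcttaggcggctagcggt
Uqcr11, chr10:80406772-80407071 (- strand): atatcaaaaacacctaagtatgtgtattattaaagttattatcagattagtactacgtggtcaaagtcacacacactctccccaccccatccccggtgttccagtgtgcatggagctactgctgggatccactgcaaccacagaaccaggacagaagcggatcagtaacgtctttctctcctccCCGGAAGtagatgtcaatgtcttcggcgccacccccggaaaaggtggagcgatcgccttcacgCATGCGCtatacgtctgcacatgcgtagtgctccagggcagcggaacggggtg
Cox6a1, chr5:115348909-115349208 (- strand): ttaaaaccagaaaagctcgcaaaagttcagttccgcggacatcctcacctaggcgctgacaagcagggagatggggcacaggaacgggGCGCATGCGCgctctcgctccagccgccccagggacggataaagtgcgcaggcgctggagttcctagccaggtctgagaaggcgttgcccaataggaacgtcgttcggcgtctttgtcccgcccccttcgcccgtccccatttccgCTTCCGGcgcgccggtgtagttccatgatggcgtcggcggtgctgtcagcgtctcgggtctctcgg
Atp5l, chr9:44920693-44920992 (- strand): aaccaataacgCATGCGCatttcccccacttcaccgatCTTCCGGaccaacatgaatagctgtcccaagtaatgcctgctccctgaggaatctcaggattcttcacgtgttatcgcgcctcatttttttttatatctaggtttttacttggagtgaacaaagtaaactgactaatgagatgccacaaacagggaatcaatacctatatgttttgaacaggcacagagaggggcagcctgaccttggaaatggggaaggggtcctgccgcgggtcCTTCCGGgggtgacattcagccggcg

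The matches lie at different distances from the start. Sdhb had the NRF-1 motif 53 bases before and the ETS core 6 bases after it. Uqcr11 had the ETS core 66 bases and the NRF-1 motif 3 bases before the start. In Ndufb6 the NRF-1 motif lay 77 bases before the start, in Cox6a1 an ETS core 16 bases before it, and in Atp5l 1 of 2 ETS cores 24 bases after it. Cox6a1 also held 2 overlapping NRF-1 motifs on opposite strands, which read as 1 longer run of capitals. These and the other matches in Ndufb6 and Atp5l lay more than 100 bases before the start. A match describes these letters only, and says nothing of binding.

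Most of the usual subunits were found in most cells. With 10 CPM as the lower limit for a positive cell, 80 members (78.4%) were positive in at least 50% of cells, against 7.76% of all genes and 19.3% of protein-coding genes. At least 90% of cells were positive for 28 members, against 0.637% of all genes and 1.54% of protein-coding genes. All 75 usual subunits passed the 50% mark, and their median share was 87.7% with a range of 50.6% to 97.5%. Of the other members, 4 assembly factors and Cox7a2l passed it too. All 80 were kept when each cell was thinned to 1000000 gene counts, and 25 members, all among the 80, passed at 100 CPM. Shares in run D were lower, where the median cell was positive for 58 of the 75 usual subunits, against 69 to 72 in the median cells of runs A, B, C and E. Many of these genes have near-identical processed pseudogenes, and the sources used here do not say how shared reads were counted, so single levels may include or lack such reads.

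**Figure D1:**
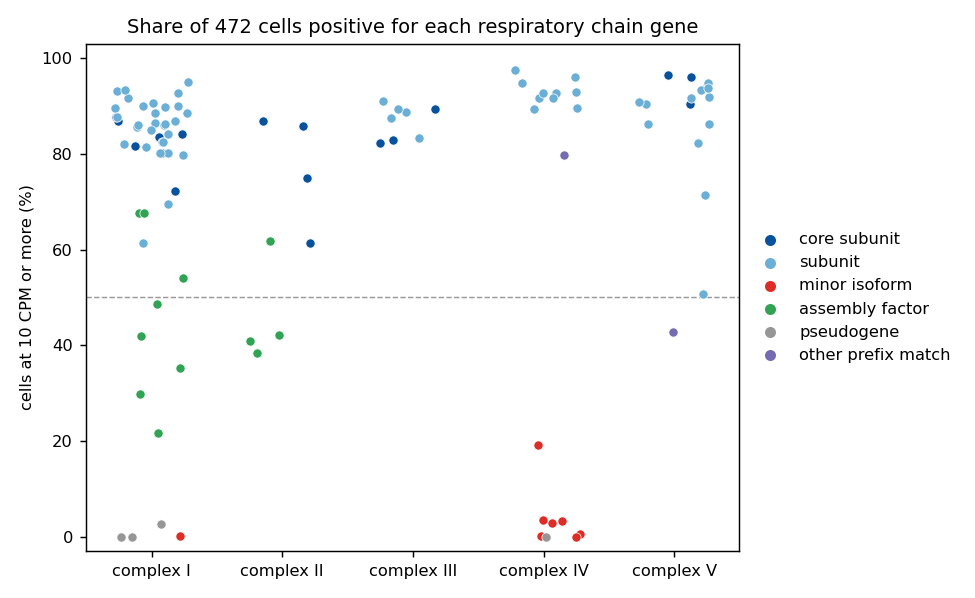
Each point is 1 gene, and the vertical axis gives the percent of all cells at 10 CPM or more, by complex, with colours for the role of the gene and a dashed line at 50%. Usual subunits (blue) lie between 50.6% and 97.5%, assembly factors (green) between 21.6% and 67.6%, and minor isoforms (red) at or below 19.1%.

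Complex I takes electrons from NADH, and its 37 usual subunits had a median share of 86.02%. The highest shares were those of Ndufa4, Ndufa13 and Ndufb8. Ndufa4 (chromosome 6, 11900292 to 11907497, mm10) ran from 0 through a median of 92.97 to 1456 CPM over cells and was positive in 95.1% (95% interval 92.8% to 96.9%). Despite its name, its protein is now counted as a subunit of complex IV. Complexes follow the symbol prefixes here, so Ndufa4 stays among the 37 and is left out of the counts, sums and pairs of complex IV. Ndufa13, an accessory subunit also known as GRIM-19, ran from 0 through 67.96 to 1431 CPM and was positive in 93.4%. Ndufb8, an accessory subunit of the membrane arm, ran from 0 through 133.4 to 835 CPM and was positive in 93.2%. Each of these genes also had cells without a count, which at this depth does not show that the RNA was absent.

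The 7 core subunits of complex I in the nucleus carry the flavin and the iron-sulphur clusters, and their shares spread from 72.2% to 87.7%. Ndufv1, which binds NADH, had a median of 200 CPM and a share of 84.1%, and its partner Ndufv2 had 110 CPM and 87.7%. Ndufs7 and Ndufs8, which hold iron-sulphur clusters near the quinone site, were positive in 86.9% and 83.5%, and Ndufs3 in 80.3%. Ndufs1, the largest subunit (chromosome 1, 63143596 to 63176833), ran from 0 through 103.8 to 884 CPM and was positive in 72.2% (67.97% to 76.2%), the lowest share of the 7. Per kb of transcript, the median level of the core subunits ran from 39.02 CPM per kb in Ndufs1 to 133.4 in Ndufs7. Among the 30 accessory subunits, Ndufa3 was lowest by share, with 0, 13.2 and 310 CPM as lowest, median and highest values and 61.4% of cells positive (56.9% to 65.9%).

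The other accessory subunits of complex I surround the core and lay between these ends. Ndufab1, the mitochondrial acyl carrier protein, ran from 0 through 80.8 to 722 CPM with 89.8% of cells positive. Ndufa9, at the junction of the peripheral and membrane arms, ran from 0 through 76.98 to 1298 CPM and was positive in 69.5% (65.1% to 73.6%), the second lowest share of the complex. Ndufs4, an accessory subunit whose loss is known to cause Leigh syndrome and in mice a fatal brain disease, had a median of 63.7 CPM and a share of 80.3%. Shares of 8 of the 37 subunits, which include Ndufb9, Ndufa6 and Ndufb10, were 90% or more. Ndufb2 had the lowest level per length of the complex, 7.16 CPM per kb, which rests on a principal transcript of 4.371 kb. Ndufb8 and Ndufb9, with 0.68 and 0.704 kb, had 196.2 and 190.8 CPM per kb. The minor isoform Ndufa4l2 lay below all of them, at 0.212% of cells.

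Complex II joins the chain to the citric acid cycle and has no subunit from mitochondrial DNA. Its 4 subunits divided into a pair with higher and a pair with lower shares. Sdha, the flavoprotein that oxidises succinate (chromosome 13, 74322254 to 74350280), ran from 0 through 323.2 to 2125 CPM and was positive in 86.9% (83.5% to 89.8%). Sdhb, the iron-sulphur subunit, ran from 0 through 150 to 4084 CPM and was positive in 85.8% (82.3% to 88.8%). The membrane anchors had lower shares: Sdhd had a median of 79.96 CPM and a share of 75% (70.8% to 78.8%), and Sdhc had 21.4 CPM and 61.4% (56.9% to 65.9%). Per kb, Sdha, Sdhb and Sdhd had 111.5, 131.1 and 64.95 CPM, and Sdhc had 6.76 with a transcript of 3171 bases. In run D, Sdha was positive in 55.9% of cells, against 84.7% to 94.7% in the other runs.

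Complex III passes electrons from ubiquinol to cytochrome c. All of its 8 members were positive in 82.2% to 91.1% of cells. Uqcrc1, a core protein (chromosome 9, 108936633 to 108949623), ran from 0 through 380.997 to 2572 CPM, was positive in 89.4% (86.3% to 92.03%) and had the highest level of the complex, 230.5 CPM per kb. The other core protein, Uqcrc2, ran from 0 through 88.2 to 724 CPM and had 46.5 CPM per kb and a share of 82.8%. Uqcrfs1, the Rieske iron-sulphur protein, ran from 0 through 124.1 to 1643 CPM with a share of 82.2%. The small subunits Uqcrq and Uqcrh were positive in 91.1% and 89.4%, with medians of 97.3 and 59.5 CPM. Uqcr10, Uqcrb and Uqcr11, the remaining members, were positive in 83.3%, 87.5% and 88.8% of cells, with medians of 28.7, 48.9 and 51.04 CPM. Cyc1, a further subunit of the complex, has another prefix and is given below beside the electron carriers.

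Complex IV, cytochrome c oxidase, passes the electrons to oxygen, and its 10 usual subunits had the highest median share of the 5 complexes, 92.8%. Cox4i1, which is needed for assembly and binds adenine nucleotides (chromosome 8, 120668222 to 120674207), ran from 0.203 through 375.3 to 1811 CPM and was positive in 97.5% of cells (95.6% to 98.7%), the highest share of all members. It had at least 1 count in every cell and the highest level per length, 491 CPM per kb. Cox8a had 0, 163.5 and 719 CPM as lowest, median and highest values and was positive in 96.2%. Cox6c had 0, 95.2 and 2638 CPM and was positive in 94.9%. The sole members of the Cox5 family, Cox5a and Cox5b, were both positive in 92.8% of cells, and their median levels were 200.2 and 93.01 CPM per kb. The remaining usual subunits, Cox6a1, Cox6b1, Cox7a2, Cox7b and Cox7c, lay between 89.4% and 93.01%.

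Complex IV is also where the isoform pairs lie, and in each pair 1 form held most of the RNA. Cox4i1 made up 98.6% of the summed level per kb of its pair, Cox6a1 99.8%, Cox6b1 98.9%, Cox7b 99.7% and Cox8a 98.8% of its family of 3. Ndufa4 made up 99.97% of its pair with Ndufa4l2, a gene known to be induced by hypoxia. At 10 CPM the forms known from heart and skeletal muscle were found in few cells: Cox7a1 was positive in 16 cells (3.39%, 1.95% to 5.45%), Cox8b in 13 (2.75%, 1.47% to 4.66%) and Cox6a2 in 3 (0.636%, 0.131% to 1.85%). The forms known from testis were also found in few, with Cox6b2 in 15 cells (3.18%, 1.79% to 5.19%), Cox7b2 in 1 cell (0.212%) and Cox8c in 0 cells, for which a count of 0 leaves room for a share of at most 0.636%. Ndufa4l2 was positive in 1 cell. These shares rest on the limit: at 1 CPM Cox7a1 was positive in 26.5% of cells, Cox6b2 in 15.3%, Cox8b in 10.8%, Cox6a2 in 1.06% and Cox8c in none. Single cells could still carry much of a rare form, since Cox7a1 reached 396.7 CPM and Cox8b 143.4 CPM in their highest cells.

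Cox4i2, known from lung and for its induction under low oxygen, had the highest share of the minor forms at 10 CPM (chromosome 2, 152754173 to 152765037). It was at 0 in the median cell, reached 118.6 CPM, and was positive in 90 cells (19.1%, 15.6% to 22.9%). Runs ranged from 15.3% in D to 21.1% in E, and the share was 18.5% after thinning to 1000000 gene counts. In 89 of the 90 cells Cox4i1 was positive as well, and the median level of Cox4i2 in its positive cells was 22.2 CPM, a median of 5.20% of the pair per kb. Positive cells had a median of 421.8 CPM of Cox4i1 and of 5917 positive genes, against 359.9 CPM and 5446.5 genes in all other cells. At 1 CPM the share was 29.9%, near the 26.5% of Cox7a1, and at 100 CPM it was 0.424%.

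Pericytes and vessel cells are known carriers of Cox4i2, so their markers were counted beside it from a list of 7 genes added after the values were seen. Rgs5 was positive in 12.2% of Cox4i2-positive cells and 10.99% of the others, Kcnj8 in 1.11% and 1.57%, Pdgfrb in 1.11% and 1.31%, and Vtn in 35.6% and 28.8%. Abcc9, Cldn5 and Pecam1 were positive in none of the Cox4i2-positive cells, and in 1.047%, 0.262% and 0.524% of the others. The summed level of the 7 markers had a median of 0.678 and a highest value of 1648 CPM in Cox4i2-positive cells, against 0.654 and 3625 CPM in the others. Some markers of retinal cells differed more. At least 3 cone markers were found in 17.8% of Cox4i2-positive cells and 9.16% of the others, and at least 3 rod markers in 67.8% and 64.1%. Shares were 51.1% and 40.6% for at least 3 bipolar markers, and 52.2% and 40.6% for at least 3 amacrine markers. The bipolar list holds Isl1 (76.9% of all cells), also in the ganglion cell list, and the amacrine list holds Pax6 (94.5%). Cox4i2-positive cells also had more positive genes, a median of 5917 against 5446.5. Summed rod markers had medians of 634 CPM in Cox4i2-positive cells and 434.5 CPM in the others. The part of this RNA in the Cox4i2 share was not tested, and the share was 17.5% in the cells with fewer than 3 rod markers. Of the marker-defined cell sets described further on, the share of Cox4i2 was 17.9% in cells positive for Spp1 and Kcng4, against 19.4% in the rest. It was 16% in Col25a1 and Cdh6 cells against 19.4%, 18.7% in Opn4 or Eomes cells against 19.1%, and 25.3% in Tbr1 cells (16.2% to 36.4%) against 17.8% (14.2% to 21.96%). Cells positive for Cox8b held more rod marker RNA, with a median of 2151 CPM over the 8 markers in 13 cells, against 461.7 CPM in the others. Some other marker lists were higher there too, with medians of 3051 against 958 CPM for Müller glia and 96.7 against 0.550 CPM for cones. Bipolar markers, Isl1 among them, had 595 against 258.5 CPM, while amacrine markers had 494 against 533 CPM. The 7 vessel markers had 38.6 against 0.624 CPM. Of these, Vtn was positive in 30.1% of all cells, Rgs5 in 11.2% and the others in at most 1.48%. Neither the part of each marker in these sums nor that of such RNA in the Cox8b share was tested.

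**Figure D2:**
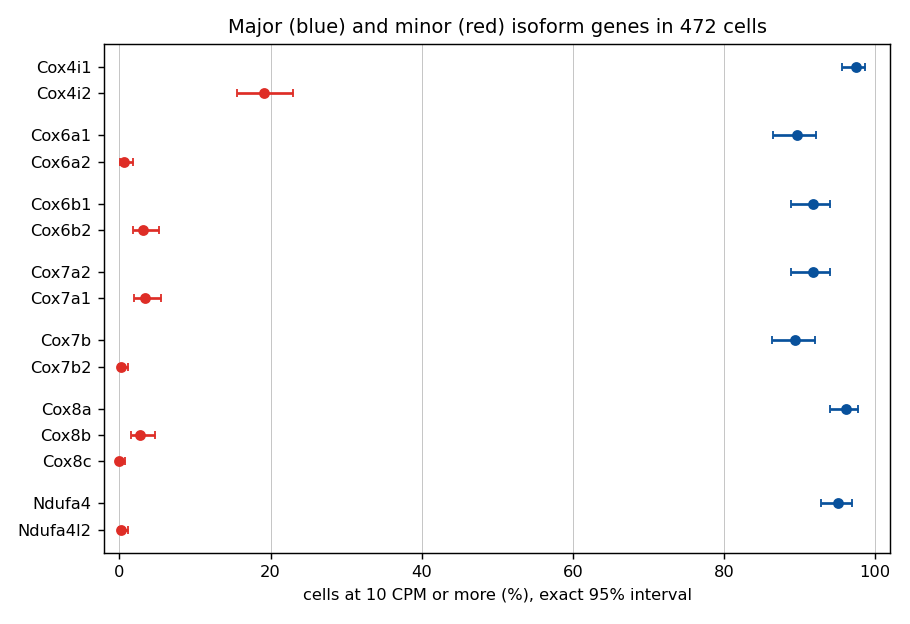
Points give the percent of all cells at 10 CPM or more for the usual (blue) and minor (red) form of 7 isoform families, with bars for the exact 95% interval. Each blue point lies at 89.4% or above, Cox4i2 at 19.1% and the other red points at 3.39% or below.

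The Cox7a family differed from the pairs, since 2 of its members were common. Cox7a2 was positive in 91.7% and Cox7a2l in 79.9% of cells (75.97% to 83.4%), and they made up 51.8% and 45.7% of the family level per kb. Cox7a2l is not a usual subunit but a factor that joins complexes III and IV into supercomplexes, and C57BL/6 mice are known to carry a shortened form of its protein, which counts per gene cannot show. It ran from 0 through 97.4 to 790 CPM, and it was the highest member of the family per kb in 43.9% of cells, while Cox7a2 was in 54.2%.

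Complex V makes ATP, and 11 of its 16 subunits were positive in at least 90% of cells. Atp5b, the catalytic beta subunit (chromosome 10, 128083273 to 128090391), ran from 0.641 through 869.6 to 3757 CPM and was positive in 96.6% (94.6% to 98.1%). Its partner Atp5a1, the alpha subunit, ran from 0.205 through 664 to 3560 CPM and was positive in 96.2%. Both had a count in every cell, and Atp5b had the highest median CPM of all members before scaling to length. Atp5c1, the central shaft, had a median of 284.8 CPM and a share of 90.5%. Per kb these core subunits had 453.9 CPM in Atp5b, 268.8 in Atp5a1 and 244.2 in Atp5c1, against 24.2 to 199.3 in the 13 other subunits.

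The peripheral stalk, which holds the catalytic head in place, had slightly lower shares than the head. Atp5f1, its b subunit, ran from 0 through 299.02 to 2436 CPM and was positive in 93.9% (91.3% to 95.8%). Atp5h, the d subunit, had 0, 135.9 and 1096 CPM as lowest, median and highest values and the same share. Atp5o, which joins the stalk to the head, ran from 0 through 152.2 to 1862 CPM with a share of 91.9%, and Atp5j, the coupling factor, from 0 through 91.7 to 2490.3 CPM with 93.4%. The 4 stalk genes lay close together per length, at 113.3 to 199.3 CPM per kb. Atp5d, the delta subunit of the central stalk, was positive in 90.5% with a median of 176.5 CPM, while its neighbour Atp5e had a lower share.

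The membrane ring of complex V is built from 1 protein encoded by 3 genes, which were all common. Atp5g3 was positive in 94.9%, Atp5g1 in 91.7% and Atp5g2 in 82.2% of cells, with medians of 130.8, 114.2 and 48.3 CPM. Per kb, Atp5g3 made up 63.2% of the family, Atp5g2 27.4% and Atp5g1 9.42%, and this order rests on the principal Atp5g1 transcript of 4.715 kb, against 0.723 and 0.731 kb for Atp5g3 and Atp5g2. At the low end stood the short genes Atp5e, the epsilon subunit, and Atp5k, the e subunit of the membrane part. Atp5e ran from 0 through 17.4 to 479 CPM and was positive in 71.4%. Atp5k, with a transcript of 0.371 kb, ran from 0 through 10.1 to 170 CPM and was positive in 50.6% (46.03% to 55.2%), so its share depends on the 10 CPM limit. Unlike most members, Atp5k was not lower in run D, where 61.02% of cells were positive, against 37.1% to 59.2% in the other runs.

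Assembly factors, which build the complexes but are not part of them, were found in fewer cells than the subunits. The 8 Ndufaf genes of complex I had a median share of 45.3% and the 4 Sdhaf genes of complex II one of 41.5%. Ndufaf3 and Ndufaf4, which act together early in complex I assembly, were both positive in 67.6% (63.2% to 71.8%), with medians of 38.6 and 32.7 CPM. Ndufaf6 was lowest, with 0, 0 and 262.4 CPM as lowest, median and highest values and a share of 21.6%. Sdhaf4 was positive in 61.9% and Sdhaf3 in 38.3%. Per kb, the median level of the 12 factors was 4.50 CPM, against 87.5 CPM for the 75 usual subunits. Of 31 assembly factors with other names, 13 (41.9%) were positive in at least 50% of cells, against 19.3% of protein-coding genes. They were led by Uqcc2 (84.7%), Coa3 (82.8%) and Cox14 (82.2%), and the lowest of the 31 were Sco1 (18.6%) and Nubpl (16.7%).

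At the 10 CPM limit the remaining members were positive in few or no cells, except Atp5s, which was positive in 42.8%. The processed pseudogenes Cox6c2, Ndufa11b and Ndufs6b were positive in no cell, and Ndufb4c, on chromosome 15, in 2.54% with a highest value of 24.3 CPM. Ndufb4c had a median of 2.54 CPM over cells, so its low share rests on the limit. The second gene named Atp5o (ENSMUSG00000116933, chromosome 16, 91684398 to 91926982) overlaps the first one (91925214 to 91931687) and never exceeded 0.154 CPM, while the first was positive in 91.9%. Reads of the overlap cannot be told apart from these files.

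Added up, all members took 1.04% of the gene counts of the median cell. The summed level had a median of 10354 CPM, quartiles of 7790 and 12434, a lowest value of 424.4 and a highest of 30375 CPM. Both ends lay in run D: the lowest cell had 11 positive members and 97.5% of its counts at ribosomal RNA loci, and the highest had 85 positive members and 13.8%. Run A had the highest median with 10785 CPM and run B the lowest with 8911, while C, D and E had 9589, 10126 and 9530 CPM. With the ribosomal RNA loci CT010467.1 and AY036118 out of the denominator, runs A to E had medians of 12866, 13395, 12138, 16617 and 12965 CPM, and run D was then highest. Across all cells the summed level had a Spearman correlation of -0.38 with the percent of counts at these loci, of 0.27 with gene counts and of 0.23 with the number of positive genes. Without the loci in the denominator these were 0.23, 0.26 and -0.04, so the first and the last changed sign. The part of these measures in the level was not tested.

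**Figure D3:**
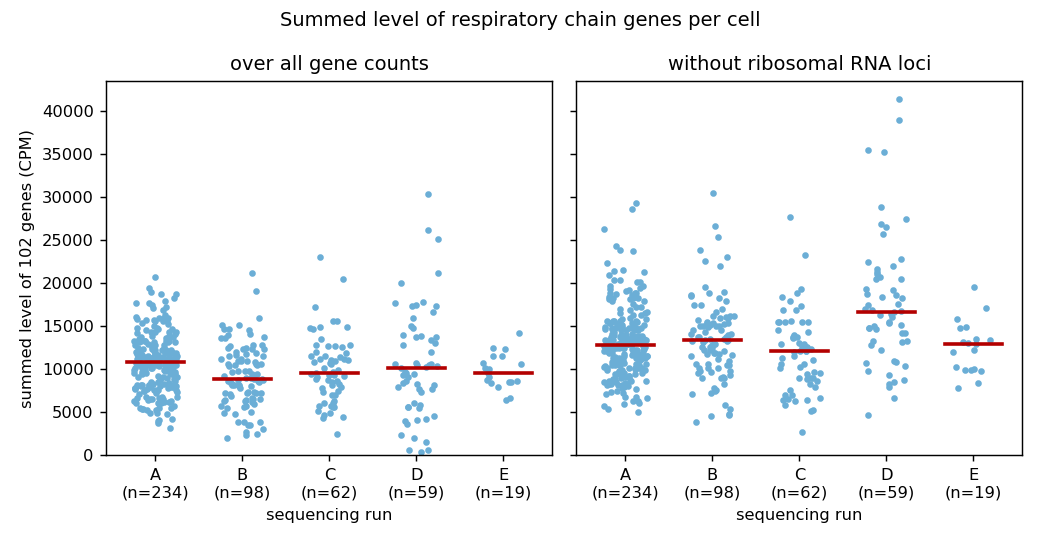
Each point is 1 cell, the vertical axis gives the summed CPM of all members, and red lines are run medians, with all gene counts (left) or gene counts without ribosomal RNA loci (right) as the denominator. Run medians lie between 8911 and 10785 CPM on the left, and run D is highest at 16617 CPM on the right.

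Complexes I and V held most of this sum. Structural subunits of complex I had a median summed level of 3326 CPM, complex II 649, complex III 986, complex IV 1202 and complex V 3360 CPM. These sums grow with the number and length of the genes, so levels were also compared per kb of the principal transcript. The median usual subunit then had 83.05 CPM per kb in complex I, 88.2 in II, 91.2 in III, 116.6 in IV and 119.3 in V, with ranges that overlapped: from 7.16 to 196.2 in I and from 24.2 to 453.9 in V, for example. The order did not hold when levels were divided by merged exon length, where the medians were 50.1, 65.9, 54.5, 67.1 and 45.6 CPM per kb and complex V was lowest. Markers of other cells were set beside the sum: cells positive for at least 3 of 8 rod markers had a median of 10123 CPM (64.8% of cells), against 10513 CPM in the others. Cells with at least 3 of 8 Müller glia markers had 10534 CPM (79.4% of cells), against 8951 CPM in the other 97, and the first also had more positive genes, a median of 5834 against 3780 in the others. The Müller glia list holds Clu (91.1% of all cells), Glul (82.6%), Dkk3 (78.6%) and Apoe (57.2%), while its other genes were positive in 12.3% to 40.5%. How much of this RNA came from Müller glia was not tested.

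Levels of the members varied together over cells. The 80 members positive in at least 50% of cells form 3160 pairs, and their Spearman correlation had a median of 0.28 with quartiles of 0.22 and 0.34, and 2 pairs were below 0. These correlations are over cells that differ in depth, run and ribosomal RNA share. Pairs of other genes are not given beside them, so the pair values alone do not set the members apart. Run medians were 0.15 in the 19 cells of E, 0.25 in A, 0.27 in C, 0.29 in B and 0.36 in D, and without ribosomal RNA loci in the denominator it was 0.22. Pairs below 0 made up 0.443% in run D, 5.16% in C and 29.3% in E, and 1.36% of all pairs without these loci. Run D was not the highest without these loci: its median was 0.20, with 9.68% of pairs below 0, and the other runs had medians from 0.19 (E) to 0.27 (C). With all gene counts, the highest pair was Cox5a with Atp5g1 (0.54), followed by Ndufa4 with Cox6b1 (0.52) and Ndufa11 with Cox6b1 (0.52). The lowest were Ndufaf7 with Cox8a (-0.04) and Ndufs1 with Atp5k (-0.02). Pairs within a complex had a median of 0.29 and pairs between complexes one of 0.29. Within complex IV the median was 0.40 over 45 pairs, against 0.28 in complex I, 0.27 in II, 0.32 in III and 0.32 in V.

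Each member was then compared with the sum of the others. The median correlation was 0.48, against 0.13 for 4225 other genes with the whole sum, and 93 of those other genes (2.20%) lay above the median of the members. The groups were not matched for detection: 67 of the 80 members were positive in at least 80% of cells. Of the 4305 genes positive in at least 50%, members included, 1030 were, and the part of this difference was not tested. Without ribosomal RNA loci the medians were 0.39 for members and -0.02 for the other genes. Cox5a (0.65), Cox6b1 (0.63) and Ndufa4 (0.62) were highest, and Ndufaf7 (0.13), Ndufs1 (0.21) and Uqcrc2 (0.24) were lowest. Among other genes the likest were Slc25a4 (0.71), the main ADP/ATP carrier of neurons and muscle, Mdh1 (0.68), the cytosolic malate dehydrogenase, and the glycolytic genes Gapdh (0.67) and Pgam1 (0.67), followed by Chchd10 (0.66), a mitochondrial protein gene. Slc25a4 ran from 1.99 through 1050 to 3973 CPM and its correlation was 0.69 to 0.72 in runs A to D and 0.26 in E. Genes at the other end were the ribosomal RNA loci AY036118 (-0.44) and CT010467.1 (-0.35) and the noncoding RNAs Snhg11 (-0.33), Malat1 (-0.33) and Meg3 (-0.32). In run D the last 3 had values of 0.11, 0.03 and 0.05. The 2 loci are part of the denominator, and without them their signs turned, to 0.13 for AY036118 and 0.26 for CT010467.1, while Snhg11, Malat1 and Meg3 had -0.68, -0.66 and -0.62.

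**Figure D4:**
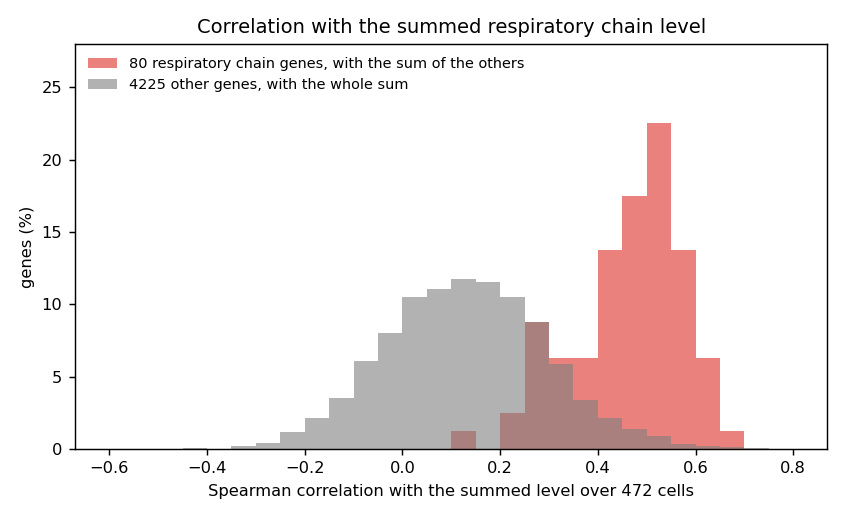
Bars give the percent of genes in each interval of Spearman correlation with the summed level over all cells, for 80 members with the sum of the other members (red) and for 4225 other genes (grey). The members centre on 0.48 and the other genes on 0.13.

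Summed levels of the complexes were also correlated. Over cells the value for usual subunits was 0.76 between complexes I and V, 0.75 between I and IV, 0.72 between III and V, and 0.38 between II and IV, the lowest of the 10 pairs. All 4 pairs with complex II lay between 0.38 and 0.58 and the 6 others between 0.65 and 0.76. The complex II sum holds 4 genes, none of them positive in 90% of cells, while the other sums hold 8 to 37 genes. The part of this in the lower values was not tested. Without ribosomal RNA loci the pairs with complex II lay between 0.21 and 0.40 and the others between 0.63 and 0.76, and the value for II and IV was then near the median of single pairs. The summed level of the 13 protein genes of mitochondrial DNA had a value of 0.24 with complex IV, 0.16 with V, 0.13 with I, 0.07 with III and 0.03 with II. Without ribosomal RNA loci these were 0.36, 0.27, 0.29, 0.17 and 0.02. Its median was 2099 CPM and it ran from 5.06 to 65223 CPM. Among its genes mt-Co1 was positive in 98.3% of cells with a median of 733 CPM, mt-Nd1 in 95.3% and mt-Atp6 in 93.9%, while mt-Nd3 and mt-Nd4l were positive in 3.81% and 0.212%. These genes have near-identical nuclear copies, so their low counts may depend on how reads were assigned, which was not tested.

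How much a member varied from cell to cell went with the length of its transcript. Excess variability, the SD of log2(CPM + 1) minus the median of genes of like mean level, could be computed for 47 usual subunits positive in 10% to 90% of cells, and 7 of them were above 0, against 1851 of 3841 other protein-coding genes. Among the largest values were those of Ndufs1 (0.32), Ndufa9 (0.24), Sdhd (0.08) and Uqcrfs1 (0.07), whose transcripts are 1.231 to 2.661 kb long. The lowest were those of Atp5k (-1.59), Ndufa3 (-1.58), Uqcr10 (-1.35), Ndufa1 (-1.26) and Atp5j2 (-1.22), with transcripts of 0.371 to 0.955 kb. Over the 47 genes the Spearman correlation with length was 0.69, against 0.13 over 3841 other protein-coding genes. The 75 usual subunits have a median transcript of 861 bases, against 3081 bases for other protein-coding genes positive in at least 50% of cells. Pairs of subunits with transcripts at or under 861 bases had a median correlation of 0.35, pairs of longer ones 0.26 and mixed pairs 0.28. Genes and pairs share the same cells and are not independent, and whether length has a part in how closely members vary together was not tested.

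The summed level was next set side by side in cells positive for class marker genes and in the rest, as a description of sets that overlap. In the cells positive for Spp1 and Kcng4 (22.5% of cells), genes of alpha ganglion cells, the lowest, median and highest values were 4024, 11527 and 20450 CPM, against 424.4, 9638 and 30375 CPM in the rest. The ratio of the medians was 1.20, and it came to 1.11 (run A), 1.35 (B) and 1.47 (D), the runs with at least 5 such cells. Without ribosomal RNA loci the ratio was 1.10, and in run D it was then 0.971. The set had a lower ribosomal RNA share, 14.3% against 18.1%, and more positive genes, 6462.5 against 5365, and the part of either was not tested. Among the 80 members, 65 had a higher mean in the set, against 2396 of 4305 genes positive in at least 50% of cells. Only Atp5b passed 1.5-fold, where 4.37% of all 4305 genes were as much higher and 3.28% as much lower: its mean was 1261 CPM in the set and 839 CPM in the rest (1.504-fold). Next were Cox7b (1.45-fold), Atp5g1 (1.43-fold), Uqcrc1 (1.42-fold) and Cox5a (1.41-fold), each with a higher mean in all 3 runs compared.

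Cells positive for Col25a1 and Cdh6, genes of direction-selective cells, differed the other way. The 50 cells had 3084, 9654 and 17281 CPM as lowest, median and highest values, against 424.4, 10452 and 30375 CPM in the rest, a ratio of 0.924. Run ratios were 0.911 for A, 0.807 for B, 1.12 for C and 0.799 for D, where the set held 31, 7, 5 and 6 cells, and the ratio was 0.814 without ribosomal RNA loci. Of the 80 members, 11 had a higher mean in the set, against 2637 of the 4305 genes. Ndufaf7 alone was past 1.5-fold, with a mean of 26.6 CPM in the set and 41.3 CPM in the rest (0.644-fold), beside 2.23% of the 4305 genes lower and 4.90% higher by as much. Cox4i1 had a mean of 310.999 CPM in the set and 432.8 CPM in the rest (0.719-fold), with the set lower in 4 of 4 runs. Ndufv3, an accessory subunit of the NADH-binding part, lay at the other end with 81.3 CPM in the set and 64.6 CPM in the rest (1.26-fold), on the higher side in 2 of 4 runs. Cells of the set had a lower ribosomal RNA share, 14.7% against 17.5%, and more positive genes, 6045 against 5474, and the part of either was not tested.

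The remaining sets had higher medians than the rest, but not in run D. In the 75 cells positive for Opn4 or Eomes, genes of melanopsin cells, the median was 10665 CPM, against 10160 CPM in the rest, with ratios of 1.02 to 1.15 in runs A, B and C and 0.827 in D. The pooled ratio was 1.05, and without ribosomal RNA loci it was 1.02 (0.971 in run A). Among cells with fewer than 3 rod markers the log2 ratio turned to -0.11, against 0.07 in all cells. No member passed 1.5-fold there, beside 1.23% of the 4305 genes higher and 1.49% lower. In the 79 Tbr1-positive cells it was 11003 CPM, against 9997 CPM in the rest, with ratios of 1.06 to 1.29 in runs A, B and C and 0.977 in D. The pooled ratio was 1.10, and 1.03 without ribosomal RNA loci. Ndufaf4 alone passed 1.5-fold in Tbr1 cells, with a mean of 71.2 CPM in the set and 47.4 CPM in the rest, beside 2.04% of the 4305 genes higher and 1.60% lower. In every set the values of single cells overlapped widely with those of the rest.

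**Figure D5:**
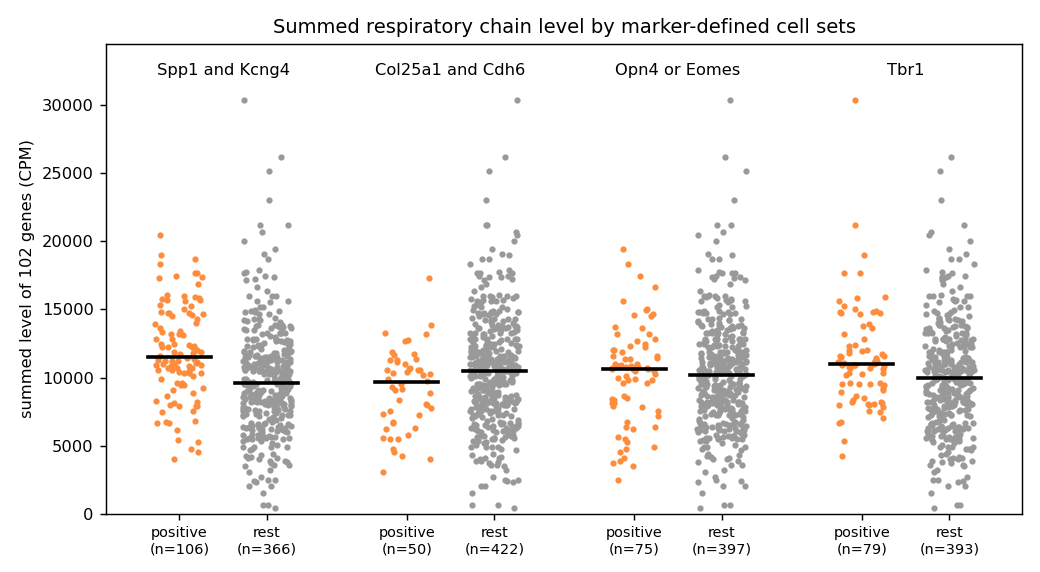
Each point is 1 cell, the vertical axis gives the summed CPM of all members, and black lines are medians, for cells positive for the named markers (orange) and all other cells (grey). The medians are 11527 and 9638 CPM for Spp1 and Kcng4 and 9654 and 10452 CPM for Col25a1 and Cdh6, with wide overlap in each pair.

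Genes that feed or serve the chain were common as well. Of 13 citric acid cycle genes, 12 were positive in at least 50% of cells, led by Mdh2 (90.3%), Idh3b (89.4%) and Ogdh (88.3%) and with Suclg2 lowest at 7.63%, while Sucla2, which encodes the ATP-forming counterpart of this succinyl-CoA ligase subunit, was positive in 86.02%. Of 10 genes of nucleotide and phosphate exchange, 8 were, led by Slc25a4 (99.2%), Slc25a3 (97.2%), the phosphate carrier, and Atpif1 (96.6%), the inhibitor of complex V, and with Ucp2 (17.4%) lowest. Of 7 genes of electron carriers and their neighbours, 6 were, with Coq9 (50.8%) and Etfdh (34.7%) lowest. Highest were Cycs (93.2%), which encodes cytochrome c, Cyc1 (87.5%) and Etfa (65.3%). Cyc1 encodes a subunit of complex III that the symbol rule does not take. None of the 12 regulators of the chain reached 50%. These counts stand beside the 19.3% of protein-coding genes that did, so that 0 of 12 is not far from the share of such genes. Ppargc1a (44.1%), Polrmt (36.7%) and Tfb2m (35.8%) were highest, and Esrra (17.6%) and Gabpa (15.04%) lowest, with Nrf1 at 26.3%. At the depth of these libraries a transcript of low level is often not caught, so a negative cell may still hold it.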

How the data were processed

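The table covers 472 cells, 234 of them in run A, and the symbol rule found 102 members. The authors deposited estimated counts, of which 1.37% were not whole numbers, for 55450 genes and 92 spike-in RNAs. The submitters' processing notes name STAR 2.7.0 as the aligner and mm10 as the build; the counting tool was not given in the sources used here. Values were rounded to whole numbers, scaled to CPM over genes without spike-ins, and called positive at 10 CPM. Positions (1-based) and lengths came from GENCODE mouse release 21, which holds all 55450 identifiers. Shares carry exact (Clopper-Pearson) 95% intervals, which cover counting error only. The limit beside a share of 0 is that of 3 cells. Cells are not replicates, so no test was run.

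Named in full were, per complex, the 3 structural subunits of highest and the 2 of lowest share, the core subunits, isoform families, the 5 most variable members and the 5 likest other genes; of each list, the 3 highest and 2 lowest. Others were chosen after their values were seen. Some items that the rule names are not reported here. Members and lists were chosen with earlier results of these data known. No doublet caller was run on cells picked singly. Correlations and folds were tested on simulated data. The software was matplotlib 3.10.9, pandas 2.3.3, scipy 1.17.1, numpy 2.4.6 and Python 3.11.15.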

Additional observations from a re-analysis of the deposited data

Results flagged for a closer look

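Ndufb1-ps, left out by the symbol rule, carried a clear signal. It was positive in 51.9% of cells (47.3% to 56.5%), while the other 8 symbols with -ps were positive in none, with at most 0.484 CPM, where a count of 0 leaves room for a share of at most 0.636%. Its level ran from 0 through a median of 10.4 to 271.4 CPM, its share by run was 45.8% to 56.8%, and its Spearman correlation with the summed member level was 0.45 over all cells. GENCODE release 21 gives it as a noncoding RNA on chromosome 12 (101968090 to 101977068), whereas the RefSeq table on GRCm38.p6 lists the name as a synonym of the protein-coding gene Ndufb1, a complex I subunit. It overlaps the start of Cpsf2 on the other strand, and Smart-seq2 reads carry no strand, so reads of the overlap cannot be told apart.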

How the results depend on the processing

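No paired analysis was possible because all cells form 1 group. Of the recomputed values, 44 moved beyond their limits (1.5 times for counts, levels per kb and correlations, an exact or order-statistic interval otherwise), 4 changed sign and the others stayed within; the cause was not tested. Unrounded counts changed none of 19. At 100 CPM 25 members were positive in 50% of cells. The summed level, main value 10354 CPM, was 13127 without ribosomal RNA loci, 13295 also without mitochondrial genes and 9468 without run A. In the same order, complex I gave 4353, 4394 and 3219 CPM, complex II 821, 827 and 582, complex III 1273, 1283 and 890.4, and complex V 4231, 4288 and 3074; complex IV gave 1591 and 1608. Shares at 1 and 100 CPM were 29.9% and 0.424% for Cox4i2, 15.3% and 0% for Cox6b2, 26.5% and 0.212% for Cox7a1, and 10.8% and 0.212% for Cox8b. At 100 CPM Cox6a2 and Ndufa4l2 were at 0%, the second also without cells with 3 or more rod markers. The correlation between members was 0.15 in run E. The log2 ratio of the Spp1 and Kcng4 set to the rest, 0.26, was 0.15 in run A, 0.43 in B, 0.56 in D and 0.14 without ribosomal RNA loci. For Tbr1, 0.14, it was 0.36 in B, 0.21 in C, -0.034 in D, 0.043 without these loci and 0.24 without cells with rod markers. For Opn4 or Eomes, 0.07, it was 0.16 in B, 0.20 in C, -0.27 in D and -0.11 without cells with rod markers. For Col25a1 and Cdh6, -0.11, it was 0.16 in run C.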
